A study of Mus musculus with 3 samples.

Results

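Changes from the parental WR19L line that were shared by both ATP11A-expressing DKO lines were examined across the genes measured well enough to compare. WR19L is a mouse T-lymphoma line of BALB/c origin, and DKO is its flippase-deficient derivative. The 3 samples, with 1 array each, were parental WR19L cells, DKO cells that stably expressed wild-type human ATP11A, and DKO cells that stably expressed the Q84E mutant of ATP11A. All were grown untreated in the same serum-containing medium, and whether either DKO line is a single clone is not given in the sources used here. DKO cells without a transgene were not analysed here, so the flippase deficiency, the human transgene and the derivation of the lines cannot be told apart in any difference from the parental line.

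Members were the probe sets with exactly 1 gene symbol whose signal reached the 75th percentile of at least 1 array, which was 369 on the parental, 373 on the wild-type ATP11A and 392 on the Q84E array. This kept 6893 of 18194 genes, measured by 10926 of 34958 such probe sets out of 45101 on the array, and each gene was read from its brightest member probe set. A gene that passed only through the array on which it was high had to differ, so the filter favours differences. Most of the higher and most of the lower shared genes described below were such cases, also far from the limit. Dusp4, for example, passed only through the DKO arrays and H2-D1 only through the parental array. A level under the median signal of its array, 50.3, 50.5 and 55.5 in the same order, was raised to that floor, and a ratio against such a level is printed as "at least". Slc25a44, at a parental signal of 369.1, was just inside the filter, and Scai, at 369.0, was just outside. Because no group had a second array, no test, SD between cultures or p-value was possible. The only error these arrays allow is the spread between probe sets of the same gene. As an SD of the log2 ratio of the DKO mean over parental, scaled to 1 probe set, it was 0.17 below the 90th percentile of signal (994 genes) and 0.089 above it (751 genes). It was taken from the brightest pair of member probe sets of a gene that lay above the floor on every array. Only pairs less than 1 apart in mean log2 level were used, so the spread can be larger for other probe sets and genes.

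ATP11A is a P4-ATPase, a membrane pump that returns phosphatidylserine and phosphatidylethanolamine from the outer to the cytosolic side of the plasma membrane with the help of a partner subunit, CDC50A, encoded by Tmem30a. In T cells this asymmetry bears on signalling at the inner leaflet, on adhesion and on recognition by phagocytes, for which exposed phosphatidylserine is a signal.

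The brighter probe set of the endogenous mouse Atp11a gene had a signal of 478 on the parental array and of 253 and 244 on the wild-type ATP11A and Q84E arrays. The other Atp11a probe set, outside the filter, had a parental signal of 131. On the DKO arrays it gave 16.3 and 31.7, both under the floor. The lower level on both DKO arrays checks neither the edit nor the human transgene, since the part of the transcript that these probes read relative to the edited site was not determined. The T cell identity of the line was checked on 11 measured markers of 12 listed, of which 5 passed the filter. Cd3d, a CD3 subunit, had signals of 6898 in parental cells, 4272 with the wild-type transgene and 6976 with the mutant, whereas Cd3e, Cd4 and Cd5 lay under the floor on all 3 arrays. The summed signal of the T cell markers was 19210, 12897 and 17624 in the same order. None of the markers of B cells, myeloid cells, NK cells, erythroid cells, fibroblasts or epithelium passed the filter, and their summed signals ranged from 18.7 to 357 per list and array.

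At least 2-fold higher levels on both DKO arrays were found for 13 of the 6893 genes, or 0.189%, and at least 2-fold lower levels on both for 29, or 0.421%. Taken singly, the wild-type ATP11A array had 17 genes higher (0.247%) and 41 lower (0.595%), and the Q84E array had 53 higher (0.769%) and 45 lower (0.653%). All ratios use the same parental array, so a deviation of that array enters both DKO ratios, and a shared direction is not a replicate. Of the 114 genes past 2-fold on at least 1 DKO array, 42 were past it on both in the same direction, 63 were past it on 1 array with the same sign on the other, and 9 had opposite signs. No gene was past 2-fold in opposite directions. Across all 6893 genes the median log2 ratio of the DKO mean over parental was 0.013, and the central 95% ran from -0.42 to 0.50.

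**Figure D1:**
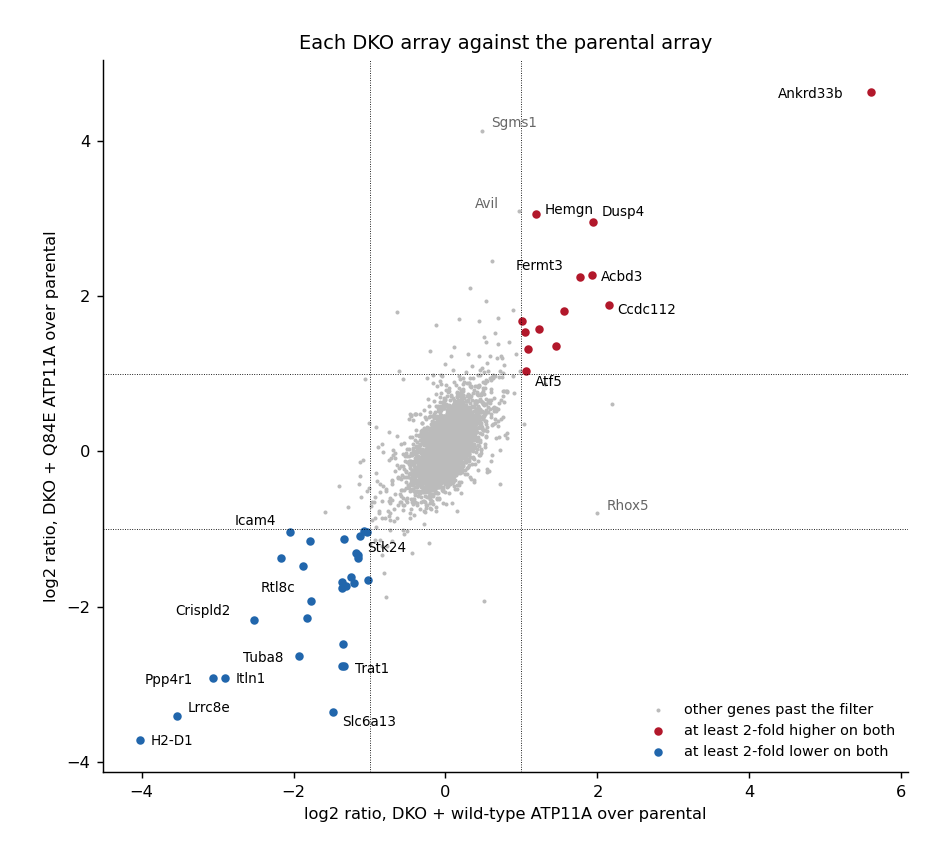
Log2 ratio over parental for each of the 6893 genes, with the wild-type ATP11A array on the x axis and the Q84E array on the y axis. Dotted lines mark 2-fold, the 13 red points are higher and the 29 blue points lower on both DKO arrays, and both axes share the parental array, which by itself pulls points toward the diagonal.

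The size of the shared differences was similar on the DKO arrays for most of the shared genes. These genes had to pass 2-fold in the same direction on both arrays, which by itself favours a small gap. Genes past 2-fold on 1 DKO array only are left out here. Among the 13 higher genes the arrays differed by a median of 0.34 on the log2 scale, by less than 0.5 in 9 genes and by at least 1 in 2, Hemgn and Dusp4. Among the 27 lower genes with a DKO level above the floor the median gap was 0.38, with 18 genes under 0.5 and 4 at least 1. These 4, chosen after their values were seen, were Slc6a13, Trat1, Gzma and 2900026A02Rik, and each was lower on the Q84E array. Of genes with several member probe sets, 3 of 5 higher genes and 9 of 11 lower genes had all of them past 2-fold on both arrays. Without probe sets of the less specific kinds, whose probes can bind several transcripts, Fermt3, Shisa5, Fam102a, Nupr1, Tspan32, Atf5, H2-D1, Gzma, 2900026A02Rik and Dock9 were no longer called. The limit itself is arbitrary: Fam102a was just inside it among higher genes, and Pmf1, at log2 ratios of 0.98 and 1.04 for wild-type ATP11A and Q84E, was just outside. Tmem108 was just inside among lower genes, and the nuclear import receptor gene Ipo5, at -0.99 and -1.19, was just outside.

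**Figure D2:**
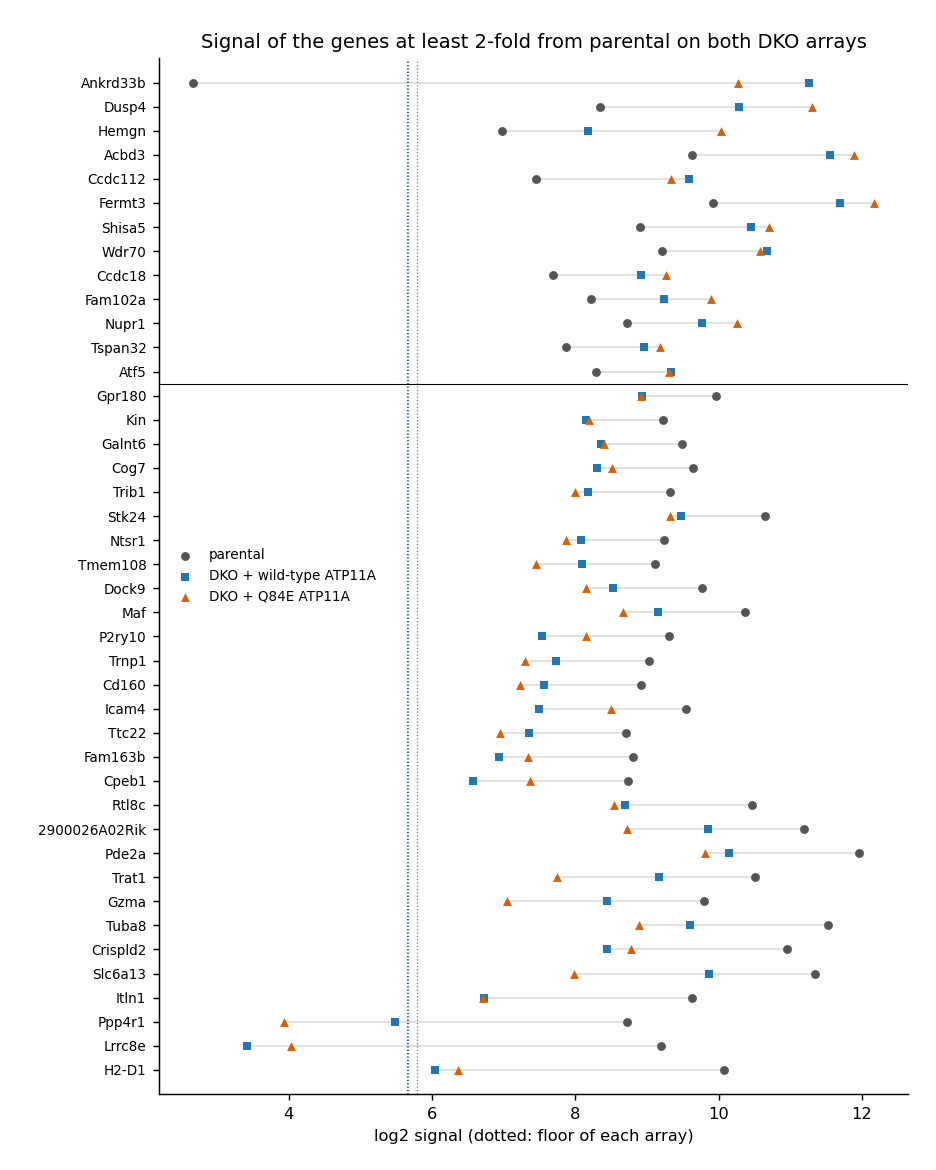
Log2 signal of the 13 higher genes (above the line) and the 29 lower genes on the parental array (circles), the wild-type ATP11A array (squares) and the Q84E array (triangles), with dotted lines at the floor of each array. Ankrd33b lies under the floor on the parental array, and Lrrc8e and Ppp4r1 lie under it on both DKO arrays.

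The promoters of the shared genes held fewer CG dinucleotides than those of the other genes. The 250 bases before the RefSeq start (assembly GRCm38.p6) were available for 5722 of the 6893 genes, including 10 of the 13 higher and 25 of the 29 lower. Acbd3, Ccdc112, Dusp4, Maf, Ppp4r1, Stk24 and Trib1 had no entry, so the CG content of these shared genes was not counted. CG content is given as the number of CG found over the number expected from the C and G content. Its median was 0.48 in the higher and 0.53 in the lower genes, against 0.78 in the 5631 genes past 2-fold on neither array. A value under 0.5 was found in 5 of the 10 higher (50%), 12 of the 25 lower (48%) and 12.5% of the genes past 2-fold on neither. The 56 genes past 2-fold on 1 DKO array only, with a promoter entry, had a median of 0.63 and 39.3% under 0.5, so low CG content was also seen outside the shared genes. Promoters poor in CG are typical of genes with restricted expression, and the level of expression was not matched between these classes. The 6 sequences below are those of the gene furthest above the parental level, of Fermt3 and Nupr1, and of lower genes with few or no CG. Shared genes rich in CG, up to Cog7 at 1.23 of expected, are not shown. Each is read 5′ to 3′ along the gene with CG in capitals, except Nupr1, where capitals mark a motif described next. The Ankrd33b window is chr15:31367760-31368009 on the minus strand, that of Fermt3 is chr19:7019470-7019719 (minus), that of Nupr1 is chr7:126625471-126625720 (minus), that of Itln1 is chr1:171535295-171535544 (minus), that of Lrrc8e is chr8:4226577-4226826 (plus) and that of Rtl8c is chrX:53607672-53607921 (plus).
Ankrd33b: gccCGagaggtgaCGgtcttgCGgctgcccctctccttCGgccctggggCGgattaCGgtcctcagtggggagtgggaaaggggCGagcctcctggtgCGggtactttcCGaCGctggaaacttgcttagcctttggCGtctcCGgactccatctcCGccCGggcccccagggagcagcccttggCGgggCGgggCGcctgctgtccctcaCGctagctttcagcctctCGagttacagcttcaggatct
Fermt3: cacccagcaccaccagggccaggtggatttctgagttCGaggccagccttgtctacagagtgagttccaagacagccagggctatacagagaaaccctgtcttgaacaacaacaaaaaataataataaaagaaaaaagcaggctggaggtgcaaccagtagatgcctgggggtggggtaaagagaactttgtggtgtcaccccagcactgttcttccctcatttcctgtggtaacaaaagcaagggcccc
Nupr1: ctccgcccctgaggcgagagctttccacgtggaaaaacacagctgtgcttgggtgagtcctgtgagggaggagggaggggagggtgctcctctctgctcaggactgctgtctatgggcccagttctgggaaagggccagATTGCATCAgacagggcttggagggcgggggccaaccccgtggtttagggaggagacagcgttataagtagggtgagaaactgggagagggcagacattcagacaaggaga
Itln1: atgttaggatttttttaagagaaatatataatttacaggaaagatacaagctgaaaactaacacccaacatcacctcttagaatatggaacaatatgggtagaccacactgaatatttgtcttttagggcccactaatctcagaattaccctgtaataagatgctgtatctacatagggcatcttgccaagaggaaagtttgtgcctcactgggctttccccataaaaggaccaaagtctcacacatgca
Lrrc8e: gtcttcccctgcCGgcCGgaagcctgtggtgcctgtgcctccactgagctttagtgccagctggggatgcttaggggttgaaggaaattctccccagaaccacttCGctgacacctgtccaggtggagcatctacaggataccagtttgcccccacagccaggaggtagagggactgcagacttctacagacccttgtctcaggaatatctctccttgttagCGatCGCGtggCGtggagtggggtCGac
Rtl8c: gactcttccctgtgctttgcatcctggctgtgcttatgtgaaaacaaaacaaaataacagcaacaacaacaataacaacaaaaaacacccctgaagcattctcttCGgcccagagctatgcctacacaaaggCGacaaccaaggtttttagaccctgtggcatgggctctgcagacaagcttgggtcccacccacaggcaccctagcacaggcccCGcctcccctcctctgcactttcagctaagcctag
The Ankrd33b window holds 19 CG (0.69 of expected), that of Fermt3 holds 1 (0.064), that of Lrrc8e 8 (0.38), that of Rtl8c 3 (0.20) and that of Itln1 0.

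**Figure D3:**
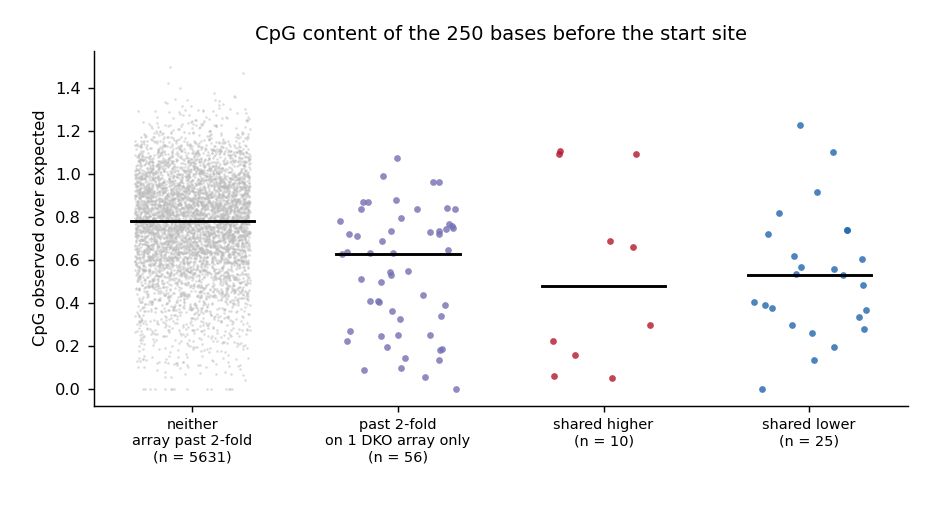
CG dinucleotides found over expected in the 250 bases before the start site, 1 point per gene with black lines at the medians, for genes past 2-fold on neither array, on 1 DKO array only, and on both (higher or lower). The medians are 0.78, 0.63, 0.48 and 0.53, and each class spans a wide range.

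The shared higher genes included a pair that act in the integrated stress response, in which ATF4 and related factors are induced when cells sense amino acid shortage or misfolded proteins. Nupr1, a small stress-induced chromatin protein, had signals of 422, 870.4 and 1222, given here and below in the order parental, wild-type transgene and Q84E transgene. The Nupr1 log2 ratios were 1.05 and 1.54, and those of its second probe set were 0.82 and 1.43. Atf5, a bZIP transcription factor of this response, gave 311, 647 and 636, with log2 ratios of 1.06 and 1.03. Both rest on probe sets of the less specific kinds alone and lost their 2-fold call without these. Both also lost it with 50 added to every signal, and Atf5 lost it with quantile normalization and Nupr1 with the mean of its probe sets. Across the list of stress response genes, 2 of 24 measured members were past 2-fold on both arrays, 15 were above parental on both and 1, Wars, was below on both. Over all genes, 0.189% were past 2-fold higher and 0.421% past 2-fold lower on both arrays. The shares over all genes by sign were 38.0% above and 32.0% below on both. These shares, by size and by sign, apply to every list below, and all lists were chosen with earlier results of these data known. The stress response list had a median of 0.079 on the log2 scale against 0.013 for all genes. Ddit4, an inhibitor of mTORC1, was the member furthest above parental without passing on both, at signals of 1562, 2261 and 5991. Its log2 ratios were 0.53 and 1.94, so its height came mainly from the Q84E array. The promoter motif of this response, TGATGNAAN, searched on both strands, occurred in the Nupr1 window as ATTGCATCA, ending 102 bases before the start and apart from the E-box CACGTG in the same window. It also occurred in Dock9, a lower gene, and in 124 of the 5722 genes (2.17%) and 3.44% of all 32851 promoter entries. ER chaperones and targets of the unfolded protein response, a related pathway, had 0 of 17 members past 2-fold, 3 above and 9 below on both, with a median of -0.11.

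Several higher genes act in adhesion, signalling and Golgi lipid transport. Fermt3 encodes kindlin-3, which binds integrin tails and activates them in blood cells. Its signals were 969, 3310 and 4596, with log2 ratios of 1.77 and 2.25. All 3 of its member probe sets were past 2-fold on both arrays. A further Fermt3 probe set, outside the filter and not of the less specific kinds, lay above the floor on all 3 arrays. Its log2 ratios were 0.24 and 0.78, short of 2-fold on both DKO arrays, so the Fermt3 probe sets differ in size of change. Tspan32, a tetraspanin of blood cells, gave 233, 496 and 582 (1.09 and 1.32), while a probe set of it outside the filter gave 0.078 and 0.39, so its value rests on 1 of the probe sets. Icam4, an adhesion molecule that binds integrins, was lower, at 745, 181 and 362 (-2.04 and -1.04). Of the LFA-1 integrin that kindlin-3 acts on, Itgal, the alpha chain, had -0.67 and -0.023, and Itgb2, the beta chain, -0.54 and -0.062. In the adhesion list 2 of 16 members were higher and 1 lower past 2-fold on both, against 0.189% and 0.421% of all genes. The median was 0.073. This list was chosen with earlier results of these data known, so its shares are no test of the list. Fermt3 and Tspan32 were measured past the filter only by probe sets of the less specific kinds, and without these neither was called. Cd47, which signals to phagocytes not to engulf, had log2 ratios of 0.50 and 0.78.

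Dusp4 encodes a nuclear phosphatase that inactivates MAP kinases and is itself induced by them. Its signals were 325, 1248 and 2524, log2 ratios of 1.94 and 2.96 by the only member probe set. Among the 9 measured genes of MAP kinase feedback it was the 1 past 2-fold on both. By sign 5 members (55.6%) were above parental on both and 0 below, against 38.0% and 32.0% of all genes. Phlda1, a growth factor-induced gene, had 0.76 and 1.01, and Dusp5, another phosphatase of the family, 0.45 and 0.54. The list median was 0.25, and it was 0.12 when the filter was lowered to the 50th percentile.

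Acbd3 is a Golgi protein that recruits phosphatidylinositol 4-kinase beta to Golgi membranes. It was measured by 4 probe sets, all past 2-fold on both arrays. The brightest gave 789, 3003 and 3803, log2 ratios of 1.93 and 2.27, and the means of the other 3 ranged from 1.40 to 2.0. In the list of diacylglycerol, phosphatidate and phosphoinositide enzymes Acbd3 was the 1 of 25 members past 2-fold higher on both arrays and 0 were past 2-fold lower. By sign alone 13 (52%) were above and 6 (24%) below on both, against 38.0% and 32.0% of all genes, with a median of 0.099. Dgka, a kinase that converts diacylglycerol to phosphatidate and dampens T cell receptor signals, gave 980, 1585 and 3215. Its ratios of 0.69 and 1.71 put it past 2-fold on the Q84E array alone. Sgms1, sphingomyelin synthase 1, showed the same kind of asymmetry at 0.48 and 4.13, and no sphingolipid gene of 21 was past 2-fold on both. Cers6, a ceramide synthase, was lower by a similar amount on both, at -0.58 and -0.57.

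The remaining higher genes belonged to no list. Ankrd33b, an ankyrin repeat gene, had the largest ratio of all, with a parental signal of 6.34, under the floor, against 2448 and 1240. It was at least 48.6-fold higher with wild-type ATP11A and at least 24.6-fold higher with Q84E. Only 1 of its 3 probe sets passed the filter, and the other 2 did not exceed 55.0 on any array. Hemgn, a nuclear protein of haematopoietic progenitors, gave 126, 289 and 1050 (1.19 and 3.05). Shisa5, an ER membrane protein linked to p53-dependent cell death, gave 476, 1402 and 1665 (1.56 and 1.81), with both probe sets past 2-fold. Ccdc112 and Ccdc18, which encode coiled-coil proteins, were higher at 2.15 and 1.89 and at 1.23 and 1.57. Wdr70, a WD-repeat gene, had 1.46 and 1.36 by its representative probe set and 0.27 and -0.069 by another probe set above the filter, so its probe sets disagree. Fam102a had 1.01 and 1.68.

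Lower genes included several surface and secreted proteins of lymphocytes. Trat1 encodes an adaptor associated with the T cell receptor. Its signal was 1451, 575 and 213, with log2 ratios of -1.34 and -2.77 and both probe sets past 2-fold. Gzma, granzyme A of cytotoxic lymphocytes, gave 891, 348 and 132 (-1.36 and -2.76). Cd160, a receptor of NK cells and cytotoxic T cells, gave 484, 189 and 150 (-1.36 and -1.69), again with both member probe sets past 2-fold. Maf, a transcription factor of helper T cells, gave 1320, 571 and 407 (-1.21 and -1.70), with all 3 member probe sets past 2-fold. Both DKO arrays lay under parental for these genes. The Q84E array was the lower of the pair in every member probe set of Trat1, Gzma and Cd160, whereas 2 of the 3 Maf probe sets were lower with wild-type ATP11A. In bulk RNA a lower level can reflect fewer expressing cells or less RNA per cell, which cannot be told apart.

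A list of the T cell receptor complex, which also held other surface proteins such as Pdcd1 and Thy1, differed less than Trat1 did. Of 7 measured members 0 were past 2-fold on both arrays, and the median was -0.37. By sign 0 were above and 5 (71.4%) below parental on both, against 38.0% and 32.0% of all genes. Pdcd1, the inhibitory receptor PD-1, had log2 ratios of -1.12 and -0.14, and Thy1 had -0.55 and -0.19. Of the receptor subunits, Cd3g had -0.40 and -0.33, and Cd247, the zeta chain, had -0.42 and -0.31, although its second probe set had a mean of 0.16. Cd3d had -0.69 and 0.016, so its sign differed between the DKO arrays. The list was lower mainly on the wild-type ATP11A array, where its median was -0.55 against -0.14 with Q84E. Among 19 genes of proximal receptor signalling Trat1 was the 1 lower past 2-fold and 0 were higher, and the median was 0.12. By sign 7 (36.8%) were above and 4 (21.1%) below on both, against 38.0% and 32.0% of all genes. Of those above, Cblb, a ubiquitin ligase that restrains T cell activation, had 0.20 and 0.70, and Dgka is given above. Of those below, Pag1, an adaptor that holds the inhibitory kinase CSK at the membrane, had -0.98 and -0.71, and Sit1, an inhibitory adaptor, had -0.57 and -0.49.

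H2-D1, a classical class I histocompatibility gene, had the lowest fully measured ratio, with signals of 1075, 66.0 and 81.9 (-4.03 and -3.71). Both of its member probe sets are of a kind that can also bind transcripts of related genes. A probe set not of that kind, outside the filter but above the floor on all 3 arrays, gave 156, 152 and 109, so the H2-D1 value is uncertain among its paralogs. Of 15 members of the class I and peptide loading list H2-D1 was the 1 lower past 2-fold, 0 were higher, and the median was -0.080. Tapbp, which loads peptides, had -0.27 and -0.39.

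Channels, receptors and enzymes of cyclic nucleotides contributed 3 lower genes of 21 measured, against 0.421% of all genes, and 0 higher. This mixed list was also chosen with earlier results of these data known, so its share is no test of the list. By sign 6 (28.6%) were above and 7 (33.3%) below on both, against 38.0% and 32.0% of all genes, and the median was 0.019. Lrrc8e, a subunit of the volume-regulated anion channel, had a parental signal of 587 and signals of 10.6 and 16.3 in the DKO lines, both under the floor. It was at least 11.6-fold lower with wild-type ATP11A and at least 10.6-fold lower with Q84E, and its second probe set was also past 2-fold on both. Pde2a, a phosphodiesterase stimulated by cyclic GMP, gave 3998, 1129 and 900.0 (-1.82 and -2.15), with 2 of 3 member probe sets past 2-fold. P2ry10, a receptor for lysophosphatidylserine, gave 633, 185 and 284 (-1.78 and -1.16). Ntsr1, the neurotensin receptor, which belonged to no list, gave 601, 270.0 and 233 (-1.15 and -1.37). These genes were lower than parental on both DKO arrays, and the order of the DKO arrays differed between them.

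Ppp4r1, a regulatory subunit of protein phosphatase 4, was at least 8.32-fold and at least 7.57-fold lower, from a parental signal of 421 to levels under the floor. It was the 1 of 17 subunit genes of protein phosphatases 4 and 2A past 2-fold, while Ppp2ca, a catalytic subunit of protein phosphatase 2A, had -0.086 on both. Tuba8, an alpha-tubulin isotype, gave 2939, 775 and 472 (-1.92 and -2.64) by the brighter of its probe sets, both past 2-fold. In the cytoskeleton list it was the 1 of 26 lower past 2-fold, and the median was 0.022. By sign 10 members (38.5%) were above and 11 (42.3%) below on both, against 38.0% and 32.0% of all genes. The beta-tubulin genes Tubb2a, at -0.77 and -1.21, and Tubb3, at -1.11 and -0.59, were past 2-fold lower on 1 array each. Avil, an actin-binding protein, had 0.96 and 3.09, just short of the limit with wild-type ATP11A.

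Other strongly lower genes had no common role. Itln1, a lectin that binds microbial sugars, gave 793, 106 and 105 (-2.91 and -2.92), nearly the same on both DKO arrays. Slc6a13, a GABA transporter, gave 2595, 932 and 254 (-1.48 and -3.35). Crispld2, a secreted protein, gave 1981, 346 and 439 (-2.52 and -2.17), with 2 of 3 member probe sets past 2-fold on both. Rtl8c, an X-linked gene derived from a retrotransposon, gave 1408, 414 and 372 (-1.77 and -1.92), whereas Sohlh1 and Tle6, listed with it among germline genes, were above parental at 2.19 and 0.61 and at 1.30 and 0.87. Cpeb1, a regulator of mRNA polyadenylation and translation, gave 424, 94.7 and 164 (-2.16 and -1.37). The uncharacterised 2900026A02Rik gave 2347, 920.4 and 422 (-1.35 and -2.48). Fam163b, Ttc22, Trnp1, Tmem108 and Trib1 were lower by log2 ratios between -1.02 and -1.88 on either array. Trib1 is a pseudokinase that directs transcription factors to degradation. Named here after their values were seen, Cog7, a Golgi tethering subunit, had -1.33 and -1.12, Galnt6, which starts mucin-type glycosylation, had -1.13 and -1.09, and Kin had -1.08 and -1.03.

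Neighbouring genes on chromosome 14 were lower together. In RefSeq gene order, 23 consecutive measured genes from Tdrd3 to Ggact were all below parental on both DKO arrays, and 21 of them by at least 0.4 on the log2 scale on both. Over all 6893 genes 121 were that far below on both, or 1.76%, and 154 that far above, or 2.23%. The stretch held 17.4% of those below. Its ends were drawn from these same ratios, by runs of at least 5 neighbours at least 0.4 from parental on both arrays. These counts and the contrast with the rest of the chromosome therefore describe the stretch and do not test it. The 2 genes short of 0.4, Dnajc3, an ER co-chaperone, and Mbnl2, a splicing regulator, separated a run of 13 genes from a run of 8. The DKO arrays had median log2 ratios of -0.76 and -0.83 there, or 1.75-fold lower in the mean. The stretch included 3 of the 29 shared lower genes, the Cdc42 exchange factor Dock9 (868, 367 and 283), the kinase gene Stk24 (1596, 708 and 642) and Gpr180 (995, 488 and 484). Further members spanned unrelated roles, among them Dis3, an exosome ribonuclease, at -0.93 and -1.14, Abcc4, a drug exporter, at -0.86 and -1.14, Bora, an activator of mitotic kinases, at -0.76 on both, and Pcca, a mitochondrial carboxylase, at -0.80 and -0.85. The ratios of the DKO mean ran from -1.43 to -0.40. The other 214 genes of the chromosome had a median of 0.033, and the 1 measured gene beyond the stretch, Tmtc4, had -0.38 and -0.24. Sugt1, next to the stretch on the other side, had -0.10 and -0.13.

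**Figure D4:**
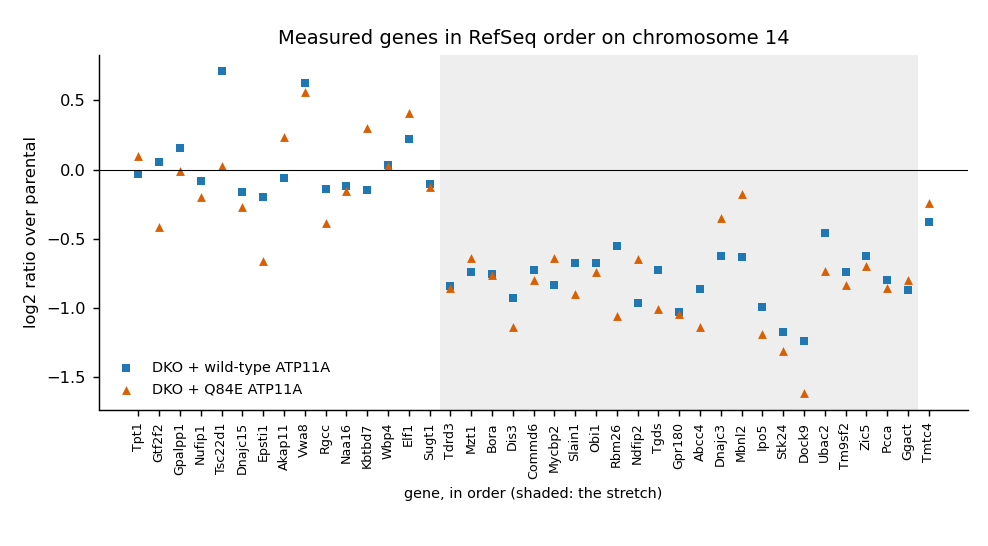
Log2 ratio over parental of measured genes in RefSeq order on chromosome 14, for the wild-type ATP11A array (squares) and the Q84E array (triangles), with the stretch from Tdrd3 to Ggact shaded. Ratios before the stretch scatter around 0, and the 23 genes inside it are all below 0 on both arrays.

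Elsewhere the shared genes were spread over the genome. With those in the stretch included, the 42 shared genes lay on 17 of 20 chromosomes. Of the 29 lower genes 26 were outside the chromosome 14 stretch, and chromosome medians ranged from -0.027 to 0.036. No other run of at least 5 neighbours was found. Shorter runs of 3, chosen after their values were seen, were Pex26, Tuba8 and Slc6a13 on chromosome 6, with mean ratios from -2.42 to -0.81, and Lztfl1, Ccr9 and Cxcr6 on chromosome 9, from -0.92 to -0.64.

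Larger gene programmes held few members past 2-fold, and some had most members on the same side of parental. Over all genes, 38.0% were above and 32.0% below parental on both DKO arrays. Of 27 genes of G2 and mitosis, 23 (85.2%) were above on both and 1 (3.70%) below. Past 2-fold were 0, and the median was 0.17 against 0.013 for all genes. Cdc25c, the phosphatase that activates the mitotic kinase, had 0.41 and 0.75, and Nusap1, a spindle protein, 0.30 and 0.73. Cholesterol synthesis and uptake had 13 of 21 members (61.9%) above on both and 0 below, with a median of 0.14 and 0 past 2-fold. Srebf2, the transcription factor that controls the pathway, had 0.27 and 0.60, and Stard4, a cholesterol transfer protein, 0.35 and 0.58. Both lists were further above parental on the Q84E array, with medians of 0.24 and 0.25, than on the wild-type ATP11A array, with 0.079 and 0.070. Mitochondrial ribosomal proteins leaned the other way, with 7 (15.2%) above and 25 (54.3%) below of 46. Their median was -0.092, and it was -0.17 on the Q84E array and -0.017 on the wild-type ATP11A array. Genes of a list are not independent of each other, and no error is available for a list median.

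**Figure D5:**
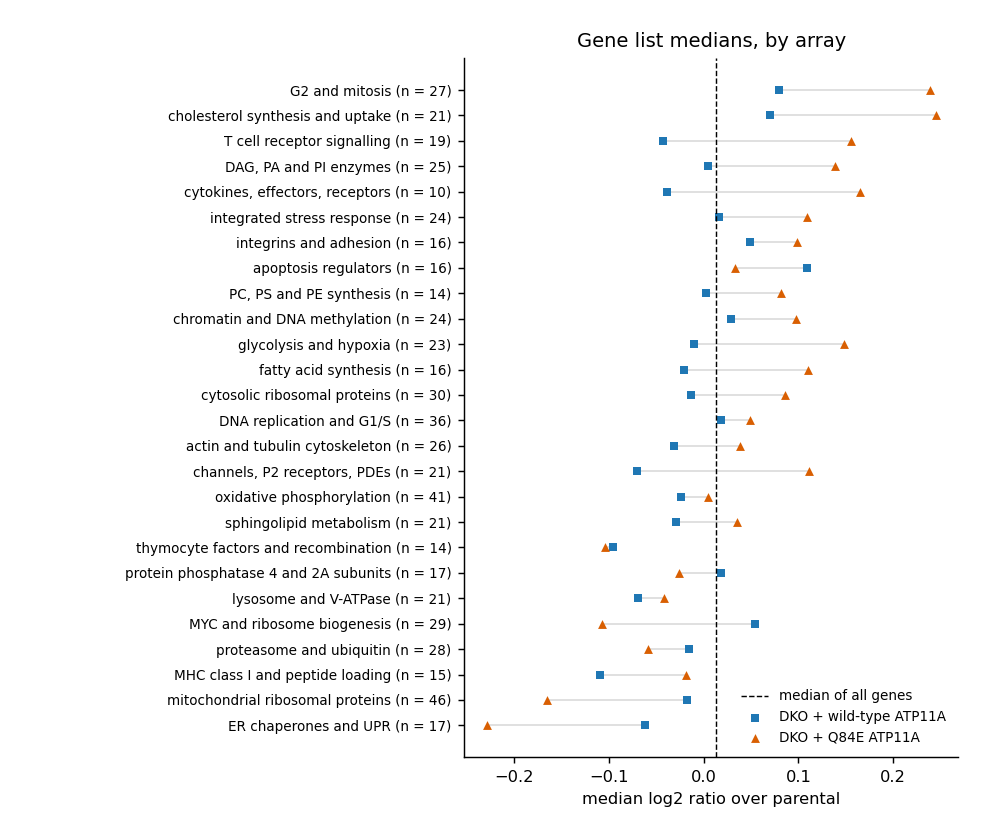
Median log2 ratio over parental of each gene list with at least 10 measured members, for the wild-type ATP11A array (squares) and the Q84E array (triangles), with a dashed line at the median of all genes in the mean of the DKO arrays. G2 and mitosis and cholesterol synthesis lie above the line on both arrays, and mitochondrial ribosomal proteins and ER chaperones below it.

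A total of 16 of the 42 shared genes fell in any of the lists, which held 670 measured genes. In the p53 list 0 of 9 members passed on both arrays, 5 were above and 2 below on both, and the median was 0.21, which turned to -0.13 with the filter at the 90th percentile. Perp, a membrane protein of cell death, had -0.70 and -1.15, and Fas, the death receptor, had 0.40 and 0.62. The 7 measured flippase genes had 0 past 2-fold, with Atp8b2 at -0.32 and -0.25 and Tmem30a at 0.28 and 0.36 by its brightest probe set. Atp11a, described above, was close to the limit at -0.92 and -0.97 by its member probe set. The other 2 member probe sets of Tmem30a had -0.085 and 0.048, and 0.052 and 0.13. The 7 scramblase genes, whose products move lipids in both directions, also had 0, with Ano6 at -0.40 and -0.21 but a mean of 0.19 by its second probe set. Tgfbr1, a TGF-beta receptor, was close to the limit on both arrays at -0.92 and -0.86.

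Over all genes 2074 of 6893 did not have the same sign on both DKO arrays. The 9 of them that were past 2-fold on 1 array were named after their values were seen. Rhox5, an X-linked homeobox gene, gave 462 on the parental array, 1845 with wild-type ATP11A and 266 with Q84E (2.0 and -0.80). Cyp2c55, a cytochrome P450, had 0.51 and -1.93, and Pglyrp2, which cleaves bacterial peptidoglycan, had -1.01 and 0.37. Drc1, a ciliary protein, had -1.06 and 0.93. The other 5, Glcci1, P2rx3, Plpp3, Gimap8 and Sun2, were past 2-fold above parental with Q84E and below it with wild-type ATP11A, at log2 ratios between -0.64 and -0.012.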

How the data were processed

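RNA of parental WR19L cells and of the DKO lines with wild-type or Q84E ATP11A had been hybridised to 3' expression arrays, 1 per group. Each probe set has a deposited intensity on a linear scale that the authors made with MAS5, according to the submitters' processing notes, of a version not given in the sources used here. Its trimmed mean, leaving out 2% at each end, was 500.0 on every array, and that scaling was kept; it can spread a shift of many genes over the others. Names came from the platform's annotation: 34958 probe sets had 1 symbol, 932 had several and 9211 had none. Log2 ratios to parental were taken with pandas 2.3.3 and numpy 2.4.6 after setting levels under each array's median to it. Genes were counted by size, at least 2-fold on both DKO arrays. The steps were run on simulated arrays whose planted changes were equal on both DKO arrays. That run checks the code and does not test the calls made on these arrays. Named genes were Atp11a, Tmem30a, the 25 highest and 25 lowest shared genes, up to 5 members per list with the same sign on both arrays, members of runs of at least 5 neighbours and genes past 2-fold in opposite directions, of which there were 0; others are marked where named, or serve as limits and markers. The members and the 46 gene lists were chosen with earlier results of these data known. Chromosome order came from RefSeq assembly GRCm38.p6. The number of arrays limits the precision. Alternatives changed the filter, the floor, the scaling, the summary of probe sets and the fold limit.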

Additional observations from a re-analysis of the deposited data

Results flagged for a closer look

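Probe sets without exactly 1 gene symbol were outside the comparisons of the report. Of the 947 that passed the brightness filter, 1 was at least 2-fold higher than parental on both DKO arrays, with signals of 159 in parental, 392 in wild-type ATP11A and 325 in Q84E cells. A further 4 were at least 2-fold lower on both. The brightest of these gave 3818, 1715 and 1708 in the same order, and the lowest ratio belonged to a probe set at 1442, 403 and 390.0, with log2 ratios of -1.84 and -1.89. Together they made up 0.528% of the 947. They could not be given a gene name here. No group had the 4 samples that a check for outlying samples needs.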

How the results depend on the processing

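The counts of 13 higher and 29 lower genes stayed within 1.5 times under quantile normalization (11 and 29), a common median (13 and 29), no floor (13 and 29) and averaging the probe sets of a gene (11 and 30). They depended on the filter, at 33 and 53 with the 50th percentile and 4 and 5 with the 90th, and on the fold limit, at 54 and 67 for 1.5-fold and 5 and 8 for 3-fold. Requiring 2-fold only in the mean of the DKO arrays gave 28 higher and 37 lower, and counting probe sets gave 23 and 48. With 50 added to every signal 8 of the higher and 24 of the lower genes remained, without Hemgn, Fam102a, Nupr1, Tspan32, Atf5, Icam4, Tmem108, Galnt6, Gpr180 and Kin. Without probe sets of the less specific kinds the counts were 8 and 25, of which 7 and 25 were among the original genes. Single values of 204 named genes were compared in each alternative setting in which the gene was measured. Of these values, 1429 stayed within 0.17 on the log2 scale of the reported one and 52 did not. Of list medians, 299 did and 5 did not. A changed filter leaves the ratio of a probe set as it was, so these settings could hardly move a single value. Only 96 of the named genes remained at the 90th percentile. Removing the floor could move only genes with a level under it. The median of the p53 list turned from 0.21 to -0.13 at the 90th percentile. No scaling moved the median of all genes by over 0.1. Low signal limits Ankrd33b, Lrrc8e and Ppp4r1, whose mean ratios without a floor were 8.10, -5.48 and -4.01. No paired analysis was possible because each group has 1 array.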
